A study of Mus musculus with 8 samples.

Results

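Memory-phenotype (MP) CD8+ T cells labelled mCre were compared with MP cells labelled WT across all expressed genes. The comparison rests on 4 of the 8 libraries of the series, chosen by their titles: 2 mCre-MP and 2 WT-MP. The other 4 libraries, mCre-TN and WT-TN, are the same genotypes in the TN subset and appear here only where the MP difference is set beside the TN difference. Of 29426 gene symbols in the count table, 12313 were expressed highly enough to be tested. All libraries came from sorted cells of mouse spleen, with no treatment named in the labels. The series title joins miR-29 with Cre, but which allele the mCre animals carried, which promoter drove Cre and whether the WT animals carried any allele are not stated in the labels. Spleens were from adult or neonatal animals per the labels' protocol, and the age behind each library is not given. The labels do not say that the 2 libraries of a group came from separate animals, so the p-values measure only the spread between these libraries, which may be technical.

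MP cells are CD8+ T cells with the surface look of memory cells in animals that have met no known antigen. The series' design text calls the subset VM, and cells were sorted by CD44 together with CD122, the interleukin-15 receptor chain encoded by Il2rb. Such cells depend on interleukin-15, carry NK-type receptors and respond quickly to cytokines, whereas TN cells are the remaining naive cells. MicroRNAs of the miR-29 family repress messenger RNAs that pair with their seed, bases 2 to 8 of the mature strand, and are known in T cells for restraining T-bet, Eomesodermin and interferon gamma. The mature 3p strands are shown because their common seed, in capitals, defines which transcripts can be searched for sites (RefSeq, GRCm38.p6, 5′ to 3′).
mmu-miR-29a-3p: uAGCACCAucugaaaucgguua
mmu-miR-29b-3p: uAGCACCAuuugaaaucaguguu
mmu-miR-29c-3p: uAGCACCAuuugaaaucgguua
The genes of miR-29a (chromosome 6) and of miR-29c (chromosome 1) lie at separate loci, each with a copy for miR-29b. The precursor line of Mir29a held 0 and 1 counts in the WT-MP libraries and 1 and 1 in the mCre-MP libraries. Those of Mir29b-2 and Mir29c held 0 in all libraries, and Mir29b-1 had no line in the count table. Mature miR-29 itself could therefore not be checked in these counts.

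Total counts were 23386348 and 21877937 in WT-MP and 18351092 and 24566129 in mCre-MP, within a range of 13479586 to 30057658 over the series. Replicates correlated at 0.9905 to 0.9935 across genes, which are not independent replicates, and differed by more than sampling noise (with a chi-square of 6.12 for each degree of freedom between the WT-MP libraries and of 4.13 between the mCre-MP libraries). The defining markers were present: Cd8a, Cd8b1, Cd44 and Il2rb were expressed in all MP libraries, and Cd4 had 1 to 9 counts per MP library. Of these 4 tested markers, 0 were called between the genotypes by edgeR, DESeq2 or limma voom, and 1 (Cd44) was higher at an unadjusted p under 0.05. Levels are given as CPM, read counts scaled to a common effective library size, and differences are log2 fold changes in which positive values mean higher in mCre. A gene was called when its p-value from edgeR's quasi-likelihood F test, adjusted by the Benjamini-Hochberg method over all tested genes, lay under 0.05, with no fold threshold.

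In MP cells 498 of 12313 genes were called, or 4.04%. Of these, 256 were higher in mCre (2.08% of tested genes) and 242 lower (1.97%). The changes were mostly small. The median size among called genes was 0.377 on the log2 scale, 43 rose and 36 fell more than 2-fold, and 84 and 73 changed more than 1.5-fold. All 498 called genes had MP libraries that did not overlap between genotypes, as had 48.8% of all tested genes. At an unadjusted p under 0.05 there were 1029 higher and 1103 lower genes. With genes split into 4 equal groups by mean level, the share called was 2.11% in the lowest group and 6.37% in the highest. The count depended on each MP library: leaving out replicate 1 or 2 of WT-MP gave 264 or 195 calls, and leaving out replicate 1 or 2 of mCre-MP gave 308 or 254. In the last of these fits the split was 166 higher and 88 lower. No called gene changed direction in any of these fits, but with no overlap between genotypes there was little room for a reversal. In bulk RNA, fewer cells of a type and less RNA per cell cannot be told apart.

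**Figure D1:**
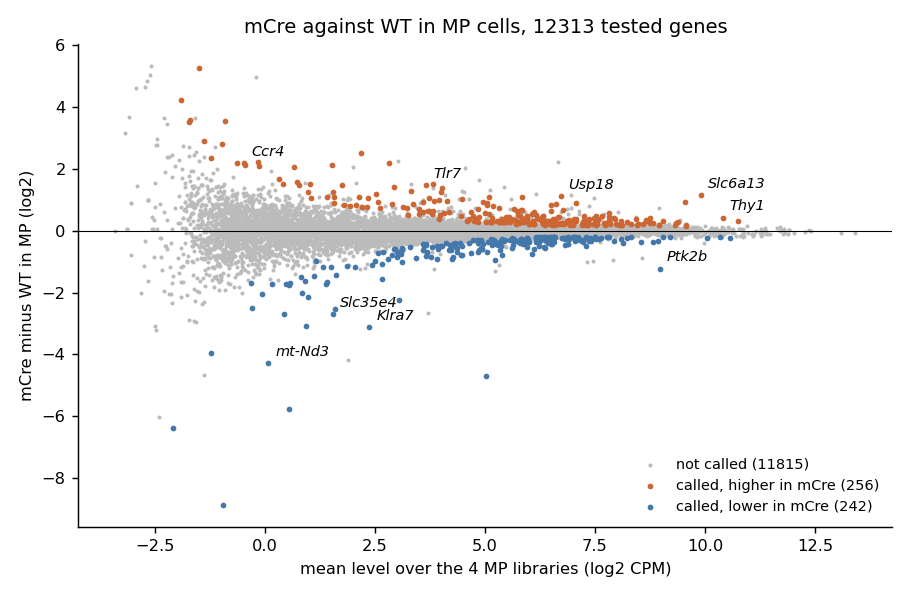
Each point is a tested gene, with the mean log2 CPM of the 4 MP libraries on the x axis and the log2 difference of mCre minus WT on the y axis. Orange points are the 256 genes called higher, blue points the 242 called lower and grey points genes not called, and the spread of grey points widens toward low levels.

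The strongest single differences by p were those of a transporter gene and a kinase gene. Slc6a13, which encodes the GABA transporter GAT2 (GRCm38 chromosome 6, 121300227 to 121337733, plus strand), stood at 632 and 650 CPM in WT-MP and at 1450 and 1419 CPM in mCre-MP. Its libraries were far apart between genotypes and close within them (log2 difference 1.16, SE 0.0505, adjusted p = 2.62e-11). Ptk2b encodes PYK2, a cytoplasmic tyrosine kinase that acts downstream of antigen and chemokine receptors (chromosome 14, 66153257 to 66281052, minus strand). It stood at 756 and 773 CPM in WT-MP and at 332 and 324 CPM in mCre-MP, and fell by 1.22 (SE 0.0559, adjusted p = 4.44e-11). Arrdc3, an arrestin-domain adaptor of receptor trafficking (chromosome 13, 80883384 to 80896042, plus strand), rose from 39.9 and 38.4 to 84.7 and 81.0 CPM (1.08, adjusted p = 2.3e-09). These 3 genes differed about as much in TN cells, with log2 differences of 1.34 for Slc6a13, −1.41 for Ptk2b and 1.12 for Arrdc3. Slc6a12, a betaine transporter gene next to Slc6a13 on chromosome 6 (121343076 to 121365775, plus strand), was at 1.04 and 0.874 CPM in WT-MP and at 2.69 and 2.71 CPM in mCre-MP (1.49). Its call was lost in 6 alternatives, with adjusted p up to 0.173 without WT-MP replicate 2.

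Other large increases by the naming rule were those of Cx3cr1, the fractalkine receptor (1.5), the RNA-sensing receptor gene Tlr7 (1.47), Gadd45g, a stress-induced partner of MAP kinases (1.38), the exonuclease gene Isg20 (1.29), the carboxypeptidase gene Cpm (1.25), Asns, the asparagine synthetase (1.07) and the neurofilament gene Nefh (0.99). Cx3cr1 rose from 6.09 and 10.9 to 23.4 and 24.5 CPM, and Tlr7 from 8.03 and 7.08 to 25 and 17.1 CPM. Neither gene's libraries overlapped between genotypes. Cx3cr1's annotated span also covers Csrnp1 and Gorasp1 on its own strand and Wdr48 on the other. Large decreases were those of Klra7 (−3.11), the zinc finger gene Zfp69 (−2.25), Syde1 (−1.0) and the receptor gene Gpr15, which directs T cells to the colon (−0.93). Others were those of the vitamin B12 carrier gene Tcn2 (−0.92), Als2cl (−0.91), the receptor phosphatase gene Ptprj (−0.89), Dapk2 (−0.85), G0s2 (−0.83) and the signalling inhibitor gene Spry2 (−0.82). Gpr15, which overlaps Cpox on the other strand, fell from 52.7 and 50.1 to 28.7 and 25.2 CPM. Calls lost without a library were those of Zfp69 (adjusted p up to 0.145, without mCre-MP replicate 2), Spry2 (0.117, without WT-MP replicate 2), G0s2 (0.0751, without mCre-MP replicate 2) and Ptprj (0.0514, without WT-MP replicate 2).

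Among genes at lower levels, mt-Nd3, a subunit of complex I encoded in mitochondrial DNA (chromosome M, 9459 to 9806), stood at 4.58 and 3.04 CPM in WT-MP and at 0.220 and 0.165 CPM in mCre-MP. It fell by 4.30 (SE 0.434, adjusted p = 1.06e-05), with a log2 difference of −4.39 in TN cells. Of 8 tested mitochondrially encoded genes it was the 1 called, and their median was −0.06. Together they summed to 25200 and 25330 CPM in WT-MP and to 24720 and 24490 CPM in mCre-MP. The mt-Nd3 line is a very small part of that sum, and what its few reads measure was not tested. Slc35e4, a putative nucleotide-sugar transporter gene (chromosome 11), fell by 2.71, from 7.08 and 7.08 to 1.04 and 1.11 CPM, with a log2 difference of −3.61 in TN cells. For both genes each mCre-MP library lay well below each WT-MP library. Some genes outside the naming rule are given because of their size, and were chosen after their values were seen. Gm26825, an unnamed transcript, stood at 166 and 163 CPM in WT-MP and at 6.16 and 6.33 CPM in mCre-MP (−4.71). Gm9008 had 124 counts over both WT-MP libraries and 0 over both mCre-MP libraries, at least 39.1-fold lower against a floor of 3 counts over the group. Rag1, which encodes a recombinase of antigen receptor assembly, had 22 and 0 counts, at least 6.94-fold lower. It overlaps B230118H07Rik on its own strand. The floors used for Gm9008 and Rag1 cover counting error only. Thsd4 fell too, from 53 counts over both WT-MP libraries to 3 over both mCre-MP libraries. Large rises from few counts were called as well: 5830416I19Rik (1 to 47 counts), Fgd1 (1 to 22), Shisa2 (2 to 26) and Fap (2 to 24). Lif rose by 3.56.

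Among the gene lists, the interferon response had the most calls in 1 direction. Of 58 tested members of this list, 30 rose in mCre-MP, 0 fell and 28 did not pass the test, against 4.04% called over all genes. The median difference was 0.65 beside 0.00 over all tested genes, and 57 members lay above 0. Usp18, which encodes the protease that removes ISG15 and dampens the interferon receptor (chromosome 6, 121245906 to 121270917, plus strand), stood at 74.4 and 68.3 CPM in WT-MP and at 176 and 138 CPM in mCre-MP (1.13, SE 0.121, adjusted p = 0.00436). Rtp4, an interferon-induced chaperone of receptors, rose from 24.2 and 22.4 to 56.1 and 44.7 CPM (1.10, adjusted p = 0.000104). For both genes the mCre libraries lay apart from the WT libraries and from each other. Isg20 rose from 6.61 and 5.98 to 17.7 and 13.3 CPM (1.29), and Cmpk2, a mitochondrial nucleotide kinase gene, from 14.9 and 16.4 to 37.1 and 26.4 CPM (1.01).

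The rise covered transcription factors, sensors and effectors of the pathway. Among the factors that carry the type I interferon signal to DNA, Irf7 (0.84), Irf9 (0.46) and Stat2 (0.31) rose. Of the cytosolic RNA sensors, Ifih1, which encodes MDA5, rose by 0.73 and Ddx58, which encodes RIG-I, by 0.42. The nucleic acid sensor gene Zbp1 rose by 0.88, from 73.6 and 70.3 to 138 and 127 CPM. Antiviral effectors that rose included Oas2 (2.52), Oas1a (1.05), Eif2ak2, the RNA-dependent kinase PKR (0.50), Bst2, the membrane tether tetherin (0.55) and Trim30a (0.45). Trim30a was among the most even, at 195 and 191 CPM in WT-MP and 275 and 252 CPM in mCre-MP. Isg15 itself stood at 14.6 and 14.9 CPM in WT-MP and at 44.0 and 27.6 CPM in mCre-MP, a difference of 1.26 that did not pass the test (adjusted p = 0.0743). Rsad2 (1.40), Oas3 (0.72) and Ifit2 (0.35) likewise did not pass, although the libraries of 57 of the 58 members did not overlap between genotypes, against 48.8% of all tested genes.

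The 2 mCre-MP libraries differed in this group. Summed over the list, WT-MP stood at 5981 and 5980 CPM and mCre-MP at 8571 and 7904 CPM. Of the 30 called members, 29 were higher in mCre-MP replicate 1 than in replicate 2, against 50.1% of all tested genes. The count of called members was 15 when either WT-MP library was left out, 27 in the absence of mCre-MP replicate 1 and 38 in the absence of mCre-MP replicate 2, all of them higher in mCre. It was 40 with DESeq2. Single calls lost in alternatives included those of Cmpk2 (adjusted p up to 0.145, without WT-MP replicate 1), Usp18 (0.0779, without WT-MP replicate 2, and lost also with the MP libraries fitted alone) and Bst2 (0.287, without WT-MP replicate 1). In TN cells 20 members of the list rose and 1 fell, against 1.55% and 1.92% over all genes, with a median of 0.60, and 19 members rose in both subsets.

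**Figure D2:**
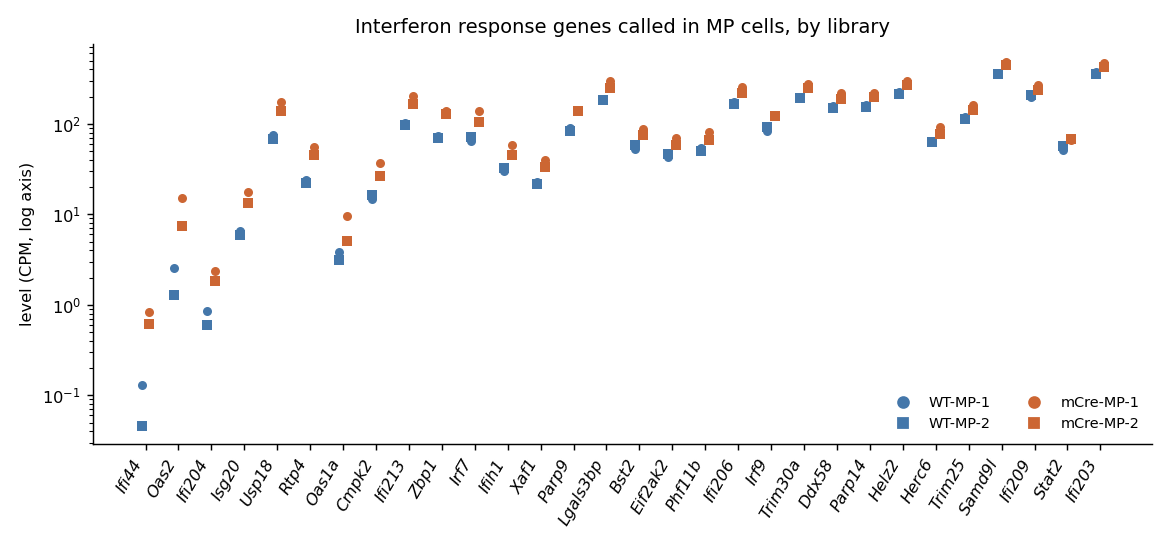
The level in CPM, on a log axis, is shown for the 30 interferon response genes called in MP cells, ordered by log2 difference, with WT-MP libraries in blue and mCre-MP libraries in orange. Each orange pair lies above its blue pair, and circles (mCre-MP replicate 1) lie above squares in 29 of the 30 genes.

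The Ifi200 genes, which encode sensors and binding partners of DNA with HIN domains, lie side by side on chromosome 1 (173350879 to 174031810). Of 11 tested genes in that span 7 rose and 0 fell. This family was singled out after the values were seen, and 3 of its genes were called without WT-MP replicate 1, WT-MP replicate 2 or mCre-MP replicate 1. Ifi213 rose from 101 and 97.8 to 206 and 164 CPM (0.89), Ifi206 from 173 and 166 to 254 and 221 CPM (0.48, adjusted p = 8.78e-05), and Mndal from 210 and 211 to 293 and 270 CPM (0.42). Ifi209 (0.32), Ifi203 (0.30), Ifi214 (0.42) and Ifi204 (1.51) also rose. The other 4 tested members did not pass the test, among them Aim2 (0.05) and Ifi208 (−0.11). Of the 11 tested members 2 lay below 0, the lowest at −1.01. The members are close paralogs, and how the deposited counts treat reads that match several of them is not given, so that their single values are uncertain. Promoters of 3 members that rose are shown because each holds the same 10-base match, in capitals, to the core of the interferon-stimulated response element (GAAA, any 2 bases, GAAA). The windows run from 250 bases before to 50 bases after the annotated start (RefSeq, GRCm38.p6, minus strand, 5′ to 3′).
Ifi206 (chr1:173491269-173491568): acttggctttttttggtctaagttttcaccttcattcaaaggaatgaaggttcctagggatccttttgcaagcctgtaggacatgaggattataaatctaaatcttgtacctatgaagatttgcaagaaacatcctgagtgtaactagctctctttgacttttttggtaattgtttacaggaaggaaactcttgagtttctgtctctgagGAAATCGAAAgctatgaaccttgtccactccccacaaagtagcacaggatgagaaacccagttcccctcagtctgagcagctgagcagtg
Ifi213 (chr1:173599223-173599522): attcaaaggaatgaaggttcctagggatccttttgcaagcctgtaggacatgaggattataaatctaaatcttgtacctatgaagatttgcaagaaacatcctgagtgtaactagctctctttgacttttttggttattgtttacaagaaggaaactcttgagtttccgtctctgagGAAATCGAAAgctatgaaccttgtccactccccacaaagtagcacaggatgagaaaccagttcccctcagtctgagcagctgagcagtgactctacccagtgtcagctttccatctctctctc
Ifi203 (chr1:173942443-173942742): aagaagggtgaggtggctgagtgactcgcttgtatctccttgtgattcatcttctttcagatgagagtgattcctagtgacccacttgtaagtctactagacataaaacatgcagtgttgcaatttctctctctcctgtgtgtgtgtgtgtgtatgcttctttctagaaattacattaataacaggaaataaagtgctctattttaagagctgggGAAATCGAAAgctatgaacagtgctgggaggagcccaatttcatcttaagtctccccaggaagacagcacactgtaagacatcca
The match begins 40 bases before the start in Ifi206, 73 in Ifi213 and 35 in Ifi203. Searched on both strands, the core occurred in 3.99% of the 27025 genes with a promoter in the table. It occurred in 11.3% of the 203 called genes that were higher in mCre-MP and had a promoter there, and in 2.72% of the 184 that were lower. Within the interferon list 27 of 47 genes with a promoter held it (57.4%), in 47.8% of the 23 called members and 65.2% of the 23 not called. These matches are a description of letters in the window and not of binding.

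Genes of antigen presentation moved less. Of 21 tested genes of MHC class I and antigen processing, 5 rose and 0 fell, 13 were higher and 0 lower at an unadjusted p under 0.05, and the median was 0.19. The risers were nonclassical class I genes and a subunit of the immunoproteasome. H2-T23, which encodes Qa-1, the ligand of the NKG2A and NKG2C receptors, rose from 370 and 373 to 494 and 488 CPM (0.40, SE 0.0561, adjusted p = 0.00022). H2-T24 rose from 27.6 and 27.2 to 53.2 and 42.4 CPM (0.80), and H2-T22 (0.40), H2-M3 (0.22) and Psmb9 (0.32) rose too. The libraries of these genes did not overlap. The classical genes H2-K1 (0.03) and H2-D1 (0.08) and the light chain gene B2m (0.07) did not pass the test. Psmb9 overlaps Tap1 on the other strand, and its call was lost in each fit that left out an MP library (adjusted p up to 0.241, without WT-MP replicate 1). The list had 3 calls without any 1 of the 4 MP libraries. The class I genes are close paralogs whose reads may have been shared. In TN cells 1 member of the list rose and 4 fell.

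NK-type receptor genes fell together in mCre-MP cells. Of 22 tested members 13 fell, 0 rose and 9 did not pass the test, with a median of −0.61. The deepest falls were in the Ly49 family, lectin-like receptors for MHC class I encoded by Klra genes in the NK gene complex of chromosome 6. Klra7 (130218605 to 130233322, minus strand) stood at 13.5 and 16.3 CPM in WT-MP and at 1.59 and 1.81 CPM in mCre-MP (−3.11, SE 0.231, adjusted p = 2.63e-07). Klra6 fell by 2.53, from 6.48 and 7.31 to 1.43 and 0.987 CPM, and Klra1 by 3.07, from 4.10 and 6.58 to 0.440 and 0.781 CPM. Neither gene's libraries overlapped between genotypes. Klra10 (−2.14), Klra5 (−1.72), Klra9 (−1.71) and Klra3 (−1.42) fell as well, and Klra4 (−1.81) and Klra8 (−1.58) did not pass the test. Taken as a family after the values were seen, the 9 tested Ly49 genes held 2006 counts over both WT-MP libraries and 377 over both mCre-MP libraries. Summed over the 11 family members in the count table, including 2 too low to test, the level was 42.1 and 48.3 CPM in WT-MP and 9.89 and 8.35 CPM in mCre-MP. The family consists of near-identical genes, so that reads may have been counted for a neighbouring member.

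Receptors at higher levels fell by less. Klrk1, which encodes the activating receptor NKG2D, stood at 179 and 191 CPM in WT-MP and at 133 and 130 CPM in mCre-MP (−0.49, SE 0.0617, adjusted p = 9.1e-05). Klrc1, the gene of the inhibitory NKG2A chain, fell from 91.3 and 79.8 to 55.0 and 58.0 CPM (−0.60), and Klrc2, the gene of the activating NKG2C chain, from 21.7 and 25.2 to 14.1 and 16.1 CPM (−0.63). Klre1, a receptor of the same complex, fell by 1.57, from 9.50 and 12.4 to 2.97 and 4.28 CPM. The libraries of these 4 genes did not overlap. Klrd1, which encodes CD94, the partner chain of NKG2, had a difference of −0.23 that did not pass the test. Outside the complex, Cd160 (−0.43) and Cd226, which encodes DNAM-1 (−0.21), fell. The NK gene complex, from 128609227 to 131247362 on chromosome 6, held 28 tested genes, of which 12 fell and 1, the early activation marker Cd69 (0.40), rose, or 46.4% called.

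Marker genes of NK and other innate lymphoid cells were measured beside these receptors. Summed over that list, WT-MP stood at 2002 and 2016 CPM and mCre-MP at 2003 and 1956 CPM. In TN cells the list summed to 1052 and 1085 CPM in WT and to 978 and 1018 CPM in mCre. The sum is therefore not a measure of NK cells alone. The list's defining marker Ncr1 was at 0.216 and 0.690 CPM in WT-MP and at 0.165 and 0.617 CPM in mCre-MP. Klrb1c, which encodes NK1.1, was at 2.07 and 2.76 CPM in WT-MP and at 1.92 and 2.14 CPM in mCre-MP. Of the list's 11 tested genes 8 lay below 0, with a median of −0.18, and at an unadjusted p under 0.05 there were 4 lower and 2 higher. Among the 4 was Fcer1g, at 5.70 and 6.30 CPM in WT-MP and at 3.02 and 4.65 CPM in mCre-MP (−0.63). By the adjusted p 1 fell (Klre1) and 1 rose (Kit, 1.57, at 0.734 and 1.06 against 2.97 and 2.39 CPM, lost when any 1 of the MP libraries was left out, with adjusted p up to 0.211). Of the Ly49 genes 7 were called, and leaving out WT-MP replicate 2 or mCre-MP replicate 2 left 3 or 4 calls, while leaving out either of the other MP libraries left 5. The count of 13 receptors became 10 or 8 when replicate 1 or 2 of WT-MP was left out, and 9 when either mCre-MP library was. In TN cells 0 of the 22 receptors were called by edgeR, and the 9 Ly49 genes had 11 counts in WT-TN and 18 in mCre-TN, too few to compare.

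**Figure D3:**
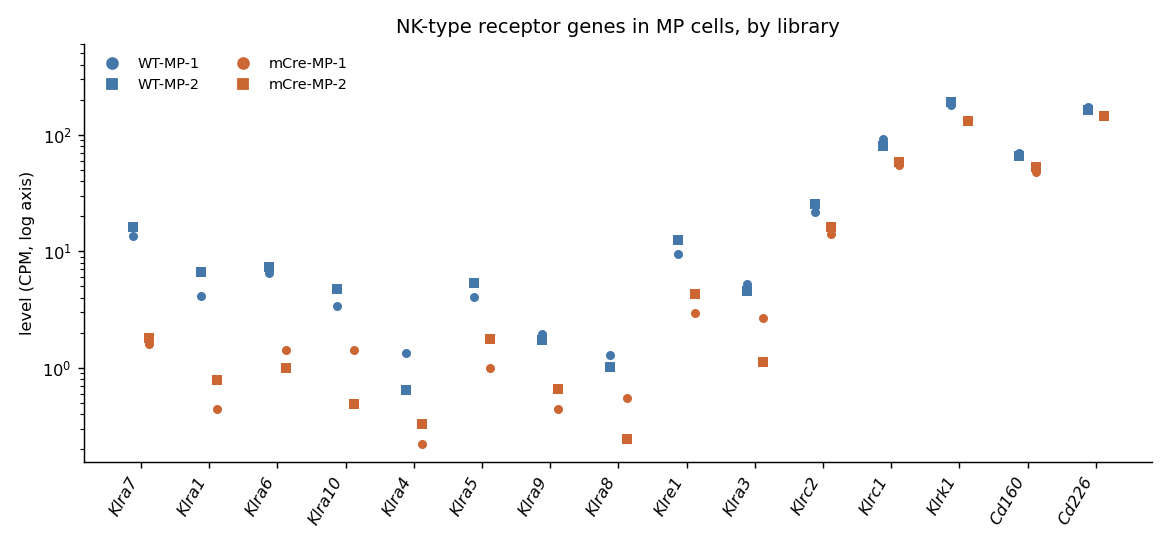
The level in CPM, on a log axis, is shown by library for the 13 NK-type receptor genes called in MP cells and for Klra4 and Klra8, which were not called, ordered by log2 difference. Both mCre-MP libraries (orange) lie below both WT-MP libraries (blue) for each gene, with wide gaps for Klra7 and Klra1 (log2 differences −3.11 and −3.07) and a narrow one for Cd226 (−0.21).

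Among genes that mark the MP state, falls were more numerous than rises. The list of memory-phenotype markers had 30 tested members with 2 rises, 5 falls and a median of −0.14. Anxa2, a membrane-binding annexin (chromosome 9, 69453620 to 69491795, plus strand), fell from 80.1 and 92.6 to 51.4 and 52.2 CPM (−0.74, SE 0.0766, adjusted p = 1.38e-05). Ctla2a, a cysteine protease inhibitor gene, fell from 100 and 93.3 to 69.8 and 63.8 CPM (−0.54), and the integrin chain gene Itgb1 from 408 and 437 to 351 and 314 CPM (−0.35). Xcl1, a chemokine that draws cross-presenting dendritic cells, fell from 28.6 and 28.1 to 18.8 and 14.5 CPM (−0.78), and S100a6 by 0.21. Slamf6 (0.33) and Runx2 (0.25) rose. Tbx21, which encodes T-bet (−0.19), Eomes (−0.18), Cxcr3 (−0.08), Ly6c2 (0.08) and Il2rb (−0.14) did not pass the test. The calls of Xcl1 (adjusted p up to 0.0603, without mCre-MP replicate 2), S100a6 (0.187, without WT-MP replicate 2) and Slamf6 (0.125, without WT-MP replicate 2) were lost in some fits. Without WT-MP replicate 2 the list had 0 rises and 4 falls, and without mCre-MP replicate 2 it had 2 and 3.

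Of 30 naive T cell genes 3 fell. They were St8sia1 (−0.40), Tdrp (−0.25) and Als2cl (−0.91, overlapping Tmie on the other strand). Thy1, the pan-T-cell surface protein, rose from 1175 and 1152 to 1572 and 1565 CPM (0.43, adjusted p = 1.81e-05). The libraries of Thy1 did not overlap between genotypes. Among 20 cytotoxic granule genes 0 rose and 2 fell, the granzyme gene Gzmm (from 33.8 and 31.2 to 21.6 and 18.3 CPM, −0.71) and Cst7 (−0.19). Gzmb, at 10.5 and 6.53 CPM in WT-MP and 15.7 and 15.8 CPM in mCre-MP, did not pass the test (0.88, adjusted p = 0.0544). Of 17 cytokine and chemokine genes, Tnf rose (0.29) and Xcl1 fell. Ccl5, at 929 and 896 against 838 and 811 CPM, did not pass (−0.15). The calls of Cst7, Tnf, Tdrp and St8sia1 were lost in several fits that left out an MP library (adjusted p up to 0.301, 0.318, 0.185 and 0.261).

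Receptors that steer migration and signalling changed one by one. Of 30 chemokine receptor and homing genes 3 fell, and 1 fell without WT-MP replicate 2 or mCre-MP replicate 1. Ccr4, a receptor for skin and inflammatory homing, was at 0.389 and 0.184 CPM in WT-MP and at 1.15 and 1.48 CPM in mCre-MP (2.18), and its call was lost without WT-MP replicate 2 or mCre-MP replicate 2 (adjusted p up to 0.0741). Gpr18 (0.23) and Cx3cr1 also rose, and Cxcr4 (−0.33), Itga6 (−0.21) and Itgb1 fell. Among 14 co-inhibitory receptors, Lag3, a ligand of MHC class II, stood at 2.07 and 1.79 CPM in WT-MP and at 4.84 and 6.05 CPM in mCre-MP (1.5, adjusted p = 0.00508). Btla rose from 104 and 106 to 132 and 128 CPM (0.31), and Cd160 fell. Pdcd1, which encodes PD-1, did not pass (0.74, adjusted p = 0.0662). The call of Lag3 was lost without mCre-MP replicate 2 or WT-MP replicate 2 (adjusted p up to 0.0981).

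Of 35 costimulation, TNF receptor and NF-kB genes 5 rose and 2 fell. Cd86, a ligand of CD28 and CTLA-4, rose from 8.12 and 7.08 to 13 and 14.6 CPM (0.86, SE 0.143, adjusted p = 0.00132). Birc3, an NF-kB-induced survival gene, rose from 81.7 and 80.6 to 108 and 105 CPM (0.39), with Relb (0.30), Tnfrsf25 (0.30) and Nfkb2 (0.21). Tnfrsf1a (−0.41) and Cd28 (−0.22) fell. Among 38 cytokine receptor and JAK-STAT genes Il2rg (0.24), Il6st (0.20) and Il27ra (0.22) rose, and Socs2, a cytokine-induced inhibitor (−1.08) and Il12rb2, a chain of the interleukin-12 receptor (−0.69), fell. Of 43 T cell receptor signalling genes 0 rose and 2 fell, Ptk2b and Bcl10 (−0.23), which is close to the share over all genes. The costimulation list had 3 rises with 1 or 0 falls when replicate 1 or 2 of WT-MP was left out, and 2 rises with 2 or 0 falls when replicate 1 or 2 of mCre-MP was. The cytokine receptor list had 0 calls without WT-MP replicate 2 or mCre-MP replicate 2 and 1 rise without either of the others. Among the calls lost without WT-MP replicate 2 were those of Relb, Il2rg, Il27ra, Socs2, Il12rb2 and Bcl10 (adjusted p over all alternatives up to 0.245, 0.379, 0.315, 0.0933, 0.274 and 0.291).

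The list of T cell transcription factors had 39 tested members, with 2 rises and 3 falls. Ikzf2, which encodes the Ikaros family factor Helios (chromosome 1, 69531214 to 69687245, minus strand), fell from 31.5 and 26.7 to 16.3 and 17.4 CPM (−0.79, SE 0.0956, adjusted p = 6.86e-05). Zbtb16, which encodes PLZF, the factor of innate-like T cells, was at 1.55 and 1.70 CPM in WT-MP and at 0.385 and 0.206 CPM in mCre-MP (−2.49). Id3 (−0.30) fell, and Tox (0.33) and Runx2 rose. The calls of Zbtb16, Id3 and Tox were lost without mCre-MP replicate 2 (adjusted p over all alternatives up to 0.168, 0.288 and 0.196). Without either WT-MP replicate 2 or mCre-MP replicate 2 this list had 0 rises and 1 fall. In the list of 15 glucocorticoid-responsive genes, which shares Zbtb16 and Cxcr4 with other lists, 4 fell (2 without WT-MP replicate 2) and 1 rose. Nr3c1, the glucocorticoid receptor gene, fell from 215 and 210 to 178 and 175 CPM (−0.27) and the kinase gene Sgk1 from 186 and 188 to 153 and 152 CPM (−0.30). Pik3ip1, an inhibitor of PI3 kinase, rose from 127 and 128 to 168 and 192 CPM (0.49).

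Stress genes moved in both directions. Among 29 heat shock and unfolded protein genes, 4 that fell encode cytosolic chaperones: Hspa1b (from 2.81 and 3.45 to 0.879 and 1.11 CPM, −1.63), Dnajb1 (from 143 and 131 to 99.3 and 105 CPM, −0.42), Hsph1 (−0.41) and Dnaja1 (−0.32). Of the 5 that rose, 4 encode proteins of the endoplasmic reticulum: Hspa5 (0.20), Calr (0.28), Sdf2l1 (0.37) and Manf (0.27). The other was Asns, which rose from 8.25 and 10.03 to 19.3 and 19 CPM. Dnaja1 overlaps Smu1 on the other strand. The list's count of higher genes was 1 without WT-MP replicate 1 or mCre-MP replicate 2 and 2 without the other MP libraries. Aminoacyl-tRNA synthetases, which load amino acids onto tRNA, were looked at after the values were seen: of 20 tested, 7 rose, 0 fell and all lay above 0, with a median of 0.17. Aars rose from 65.1 and 69.3 to 98.1 and 90.6 CPM (0.49), Cars from 27.2 and 28.7 to 41.9 and 39.5 CPM (0.54), and Wars from 76.3 and 76.6 to 94.5 and 94.0 CPM (0.30). Without mCre-MP replicate 1 the count was 3. Of 21 amino-acid response genes, also chosen afterwards, 4 rose and 0 fell, among them the amino acid transporter gene Slc7a5 (0.62), and 2 rose without WT-MP replicate 1 or mCre-MP replicate 1.

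Ribosomal protein genes leaned the other way by small amounts. Of 77 tested 0 rose and 5 fell, 71 lay below 0 and the median was −0.09. Rps16 went from 1573 and 1685 to 1387 and 1398 CPM (−0.23, adjusted p = 0.0151). The number called was 14 with DESeq2, 0 without WT-MP replicate 2, 2 without WT-MP replicate 1 and 1 without either mCre-MP library. In TN cells 21 fell. Of 78 nuclear subunits of the respiratory chain 0 were called by edgeR, 2 were higher and 3 lower at an unadjusted p under 0.05, and DESeq2 called 0 and limma voom 1. Cell cycle genes had 1 call of 43 (Cdkn2d, 0.31) and glycolysis 2 of 26 (Pkm, 0.22, and the glucose transporter gene Slc2a3, −0.27). Apoptosis regulators had 1 of 21 (Casp8, 0.19), clock genes 1 of 18 (Nr1d2, −0.29) and the Gimap and Schlafen genes 1 of 14 (Slfn8, 0.37). Against 4.04% over all genes, such single calls are not a result about these lists. The calls named here were each lost in some fit without an MP library, with adjusted p from 0.0944 (Slc2a3) to 0.248 (Casp8) at the highest. Immediate-early genes had 1 rise (Cd69) and 2 falls (Rgs2, −0.41, and Fosl2, −0.32) of 34, and both falls were lost in some alternatives (adjusted p up to 0.0858 and 0.31).

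**Figure D4:**
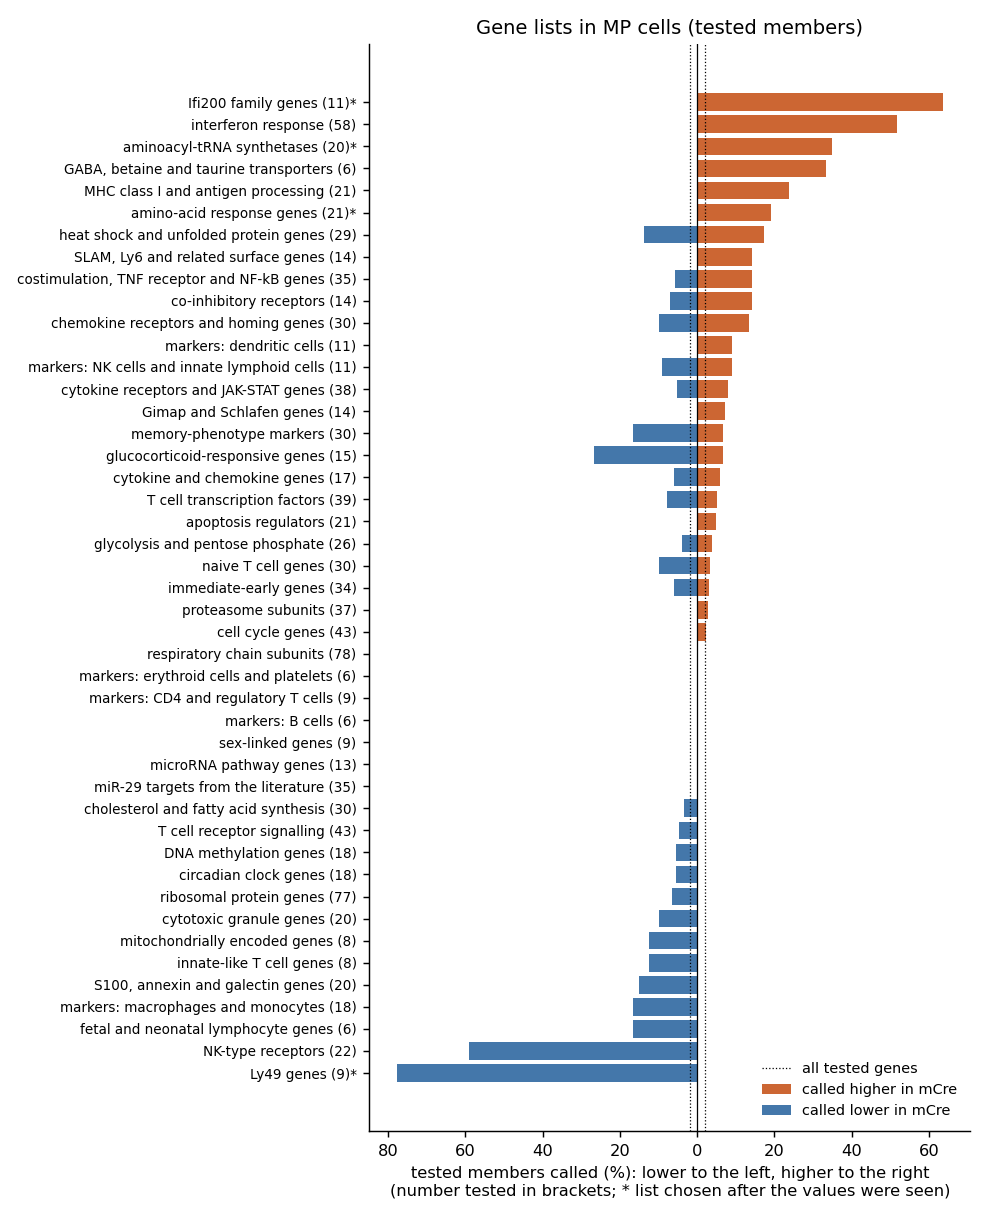
Bars give the percentage of each list's tested members called higher (right, orange) or lower (left, blue) in mCre-MP, with the number tested in brackets and dotted lines at the 2.08% and 1.97% of all tested genes. The interferon response and Ifi200 lists extend farthest to the right and the Ly49 and NK-type receptor lists farthest to the left, and starred lists were chosen after the values were seen.

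Marker lists of other cell types ranged widely in level, and some macrophage markers fell with genotype. Of 18 tested macrophage and monocyte markers 3 fell: Hmox1 (−1.12), Axl (−0.67) and the complement gene C1qa (−1.68). At an unadjusted p under 0.05, 11 were lower and 0 higher, and the median was −0.99. Their summed level was 90.0 and 60.5 CPM in WT-MP and 46.9 and 44.5 CPM in mCre-MP, and none of the list was at 0 over the MP libraries. The count of falls was 0 or 6 when replicate 1 or 2 of WT-MP was left out, and 1 or 0 when replicate 1 or 2 of mCre-MP was. In TN cells 4 fell. In TN cells their sum was 80.3 and 59.1 CPM in WT and 41.2 and 37.3 CPM in mCre, and in those TN libraries the 11 Ly49 genes of the table summed to 0.308 to 0.591 CPM. The part of these transcripts in other decreases was not tested. B cell markers summed to 28.1 and 26.2 against 29.3 and 26.7 CPM, and CD4 and regulatory T cell markers to 45.2 and 42.5 against 43.1 and 43.1 CPM, with 0 called by edgeR, DESeq2 or limma voom in either. At an unadjusted p under 0.05 the B cell list had 0, and the CD4 list 1 higher and 1 lower. Cd163l1, the main contributor to the gamma-delta T cell markers, was at 1191 and 1121 CPM in WT-MP and at 916 and 840 CPM in mCre-MP and did not pass the test (adjusted p = 0.379). Neutrophil markers, none of which passed the expression filter, summed to 0.26 and 0.28 CPM in WT-MP, 0 in mCre-MP replicate 1 and 4.61 in mCre-MP replicate 2. Erythroid and platelet markers summed to 25.7 and 18.4 CPM in WT-MP and 28.1 and 51.5 CPM in mCre-MP.

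Because the series title names miR-29, the published targets and predicted sites of this family were described without a test. Of 35 tested genes in the list of targets from the literature, 0 were called by edgeR, DESeq2 or limma voom, 3 were higher and 5 lower at an unadjusted p under 0.05, and the median was 0.00. DNA methylation genes, a known target group, had 1 call of 18 (Zbtb38, −0.27, not called with DESeq2), and 0 of 13 microRNA pathway genes were called by edgeR, DESeq2 or limma voom, or had an unadjusted p under 0.05. Across 11654 genes with an annotated 3′ UTR, 1952 held at least 1 match to the seed (TGGTGCT). Of these, 42 rose and 36 fell, or 4.0% called, and their median was 0.01. Of the 9702 genes without a match 206 rose and 197 fell, or 4.15%, with a median of 0.00. With 2 or more matches there were 306 genes, of which 6 rose and 2 fell. Genes with a match had longer UTRs (median 2611 against 1141 bases). Arrdc3, with 2 matches, was the called gene with a match that had the smallest p. Pik3ip1 and Itgb1 are shown beside it as genes with 1 match that rose and fell (first match in capitals, with its surroundings in the transcript, GENCODE M21 on GRCm38).
Arrdc3: gaacgctggccTGGTGCTtgacctggttaa
Pik3ip1: agtagccacagTGGTGCTgtggcaaataag
Itgb1: atttgtgaatgTGGTGCTtgtaagtgcaca
Such a match is a description and not a tested site. Within 10 megabases of the Mir29a locus 1 of 76 tested genes was called, and around the Mir29c locus 2 of 44.

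The genotype differences of MP cells were set beside those of TN cells, whose libraries are separate but were fitted together with those of MP. In TN cells 427 genes were called, 191 higher and 236 lower. Of the 498 genes called in MP, 97 rose and 81 fell in TN as well, 35.7% of the MP calls and 41.7% of the TN calls. The sign was the same in TN for 447 of the 498 (89.8%), whether called or not. Slc6a13, Ptk2b, Arrdc3, Thy1, Dcaf17 (0.82, overlapping Mettl8) and Tanc1 (0.69) were among those called in both. Only 4 genes were called in opposite directions. A difference called in MP and not in TN is not thereby shown to differ between the subsets, and the interaction term tests this. It called 16 genes, or 0.13%, 9 of which were also called in MP, and 729 had an unadjusted p under 0.05.

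Ikzf2 led the interaction by its p-value. In TN cells it went from 23.4 and 22.4 CPM in WT to 34.8 and 32.8 CPM in mCre (0.57), whereas in MP cells it went from 31.5 and 26.7 to 16.3 and 17.4 CPM (interaction −1.35, adjusted p = 3.7e-05). Cd86 went from 14.3 and 16.6 to 8.08 and 10.1 CPM in TN and from 8.12 and 7.08 to 13 and 14.6 CPM in MP (interaction 1.65, adjusted p = 0.00047). The libraries of both genes were separate in both subsets and in opposite order. S100a6 (interaction −1.16) and Il12rb2 (−1.64) rose in TN and fell in MP. H2-Q6 (1.09), H2-Q7 (0.58) and the signalling adaptor gene Traf1 (0.70) fell in TN and did not pass the test in MP. Anxa2 (−0.67) and Itm2a (−0.67) fell in MP and did not pass in TN. For 12 of the 16 genes the interaction was recomputed singly under the alternatives, not for Anxa2, Atf6, Clec2i and Fam135b. Among the 12, the calls lost were those of S100a6 with limma voom and of Il12rb2, Itm2a, Hopx, Edaradd and Gpr55 in at least 6 alternatives each. The NK-type receptors had no call in the interaction, so a difference between subsets was not shown for them.

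**Figure D5:**
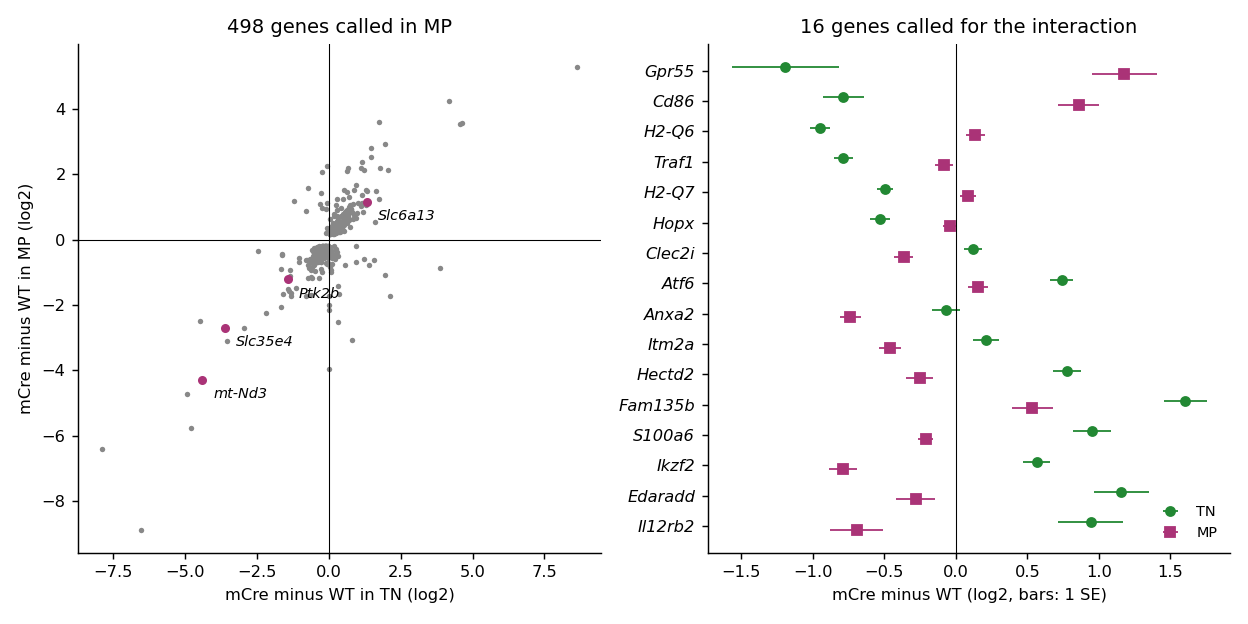
The left panel plots the log2 difference of mCre minus WT in TN (x axis) against that in MP (y axis) for the 498 genes called in MP, and most points lie in the quadrants of equal sign. The right panel gives both differences with 1 SE for the 16 genes called for the interaction, of which Ikzf2, Il12rb2, S100a6 and Cd86 lie on opposite sides of 0 with both differences called.

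Called genes occurred on every autosome, and some lay close together. On chromosome 6, Pex26, Usp18, Slc6a13 and Slc6a12, all higher in mCre-MP, lay between 121183667 and 121365775. On chromosome 11, called genes between 3330401 and 5152257 included Pik3ip1, Morc2a, Slc35e4, Tcn2, Lif, Nefh and Emid1, which changed in both directions. These stretches were picked after the values were seen, and the share of their tested genes called was not computed. By autosome the share called ran from 2.11% on chromosome 15 to 6.67% on chromosome 6, where 12 rose and 27 fell, and chromosome 1 had 5.85%. The 12 falls of the NK gene complex were part of the count of chromosome 6. Of 6 tested genes on chromosome Y 0 were called. Of the called genes with a single annotated locus, 482 were protein-coding, 14 lincRNA and 1 a microRNA gene.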

How the data were processed

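RNA from sorted splenic CD8+ T cells was sequenced in 8 libraries, 2 for each combination of genotype (WT, mCre) and subset (TN, MP). The deposited table holds whole-number read counts per gene symbol, not normalized. Per the submitters' processing notes, Trim Galore, HISAT2, featureCounts and mm10 were used. Versions, annotation, strand setting and the treatment of reads with several matches were not given in the labels or notes.

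Groups came from the sample titles. Counts were tested with edgeR 4.0.16 (R 4.3.3): filterByExpr, TMM scaling, robust quasi-likelihood F test, 1 fit over all 8 libraries, Benjamini-Hochberg adjustment with a threshold of 0.05. The fit was tested on simulated data. CPM use TMM-scaled library sizes, and a standard error is the log2 difference divided by the square root of F. Alternatives were RLE or total-count scaling, DESeq2 1.42.0, voom (limma 3.58.1), no filter, a stricter filter (CPM of 1 in 4 libraries), MP libraries alone, a replicate block, no robust step, and leaving out each library. Named genes were, in each direction, the 12 largest calls with mean log2 CPM of at least 3, the 6 calls with the smallest p and up to 6 interaction calls, with up to 4 members per list by p and the sort markers. Unnamed transcripts were not eligible. Others are given as list members or as chosen after their values were seen. Members and lists were chosen with earlier results of these data known. Coordinates are from GENCODE M21 on GRCm38, and promoters and microRNAs from RefSeq on GRCm38.p6. Some results are not reported here.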

Additional observations from a re-analysis of the deposited data

Results flagged for a closer look

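For 16 genes the genotype difference in MP cells differed from that in TN cells by edgeR's test of the interaction, with Benjamini-Hochberg adjustment over all tested genes. Values are the log2 difference in MP minus that in TN. Higher in MP relative to TN were Gpr55 (2.37), Cd86 (1.65), H2-Q6 (1.09), Traf1 (0.70), H2-Q7 (0.58) and Hopx (0.49). Lower were Il12rb2 (−1.64), Edaradd (−1.44), Ikzf2 (−1.35), S100a6 (−1.16), Fam135b (−1.07), Hectd2 (−1.03), Itm2a (−0.67), Anxa2 (−0.67), Atf6 (−0.59) and Clec2i (−0.48). For 12 of these genes the interaction was recomputed singly in the 16 alternatives that give one, and Cd86, H2-Q6, H2-Q7, Hectd2, Ikzf2 and Traf1 kept their call in each. It was not recomputed singly for Anxa2, Atf6, Clec2i and Fam135b.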

How the results depend on the processing

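No called MP gene changed sign in any alternative run, but their libraries did not overlap between genotypes, which left little room for a reversal. Without an expression filter 888 genes were called in MP (446 higher, 442 lower), 783 in TN and 81 for the interaction. DESeq2 called 365 genes in MP (206 higher, 159 lower), among them 305 of the main calls (61.2%). The interaction had 7 calls with limma voom and 8 without the robust step. Leaving out 1 library at a time gave 195 to 593 calls in MP (96 to 285 higher, 88 to 333 lower), 204 to 446 in TN and 9 to 32 for the interaction. Fits without an MP library have 1 sample in an arm, which is assumed to vary like the other groups. Of 100 called genes named by the rule, 48 kept their call in every alternative and 52 lost it in at least 1. With the replicate block 617 genes were called in MP, but same-numbered libraries did not deviate together (correlations −0.0446 to 0.109), so the numbers are not taken as pairs. With 2 libraries a group, small differences and differences of genes at a few counts could be missed. Some were called, such as those of Trip12 (0.17) and Rag1 (22 against 0 counts).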
